A study of Zea mays with 3 samples.

Results

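The genes described here are those of strategy II iron uptake in maize, namely nicotianamine synthases, deoxymugineic acid synthase and the transporter yellow stripe 1. They were taken from a list of 7 gene identifiers, by collecting every array probe whose transcript belonged to a listed gene. Probes were found for 6 of the 7 genes, which gave 7 transcripts of the 59756 on the array and 18 of its 139000 transcript probes. The nicotianamine synthase gene nas1 (GRMZM2G385200) had no probe under its identifier and was not analysed here. The gene table of RefSeq (assembly Zm-B73-REFERENCE-NAM-5.0) held 6 of the identifiers, and it named GRMZM2G030036 as nas2, GRMZM2G060952 as DMAS1 and GRMZM2G156599 as ys1. GRMZM2G050108, GRMZM2G439195 and GRMZM2G478568 entered the list as nicotianamine synthases but carry no gene name in that table, so they are called by their identifiers.

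Grasses take up iron by releasing phytosiderophores, small chelators of the mugineic acid family, into the soil solution. Nicotianamine synthase joins molecules of S-adenosylmethionine into nicotianamine, which binds iron, zinc, nickel and other metals inside the plant. Nicotianamine aminotransferase and deoxymugineic acid synthase then turn nicotianamine into deoxymugineic acid, and YS1 carries the complex of iron and phytosiderophore back into the root.

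Roots of maize plants (cv. PR33T56, called a hybrid in the sample labels and an inbred line in the study's methods) were measured in 1 condition, Urea+NBPT, with 3 replicates from separate experiments. Plants were 5 days old when they were moved for 8 h to a solution with 0.5 mM urea as nitrogen source, 0.897 μM NBPT (an inhibitor of urease, the enzyme that splits urea) and NaFe-EDTA as iron source. Each replicate was RNA from the pooled roots of 6 plants, labelled with Cy3 and hybridized to 1 NimbleGen array. Roots supplied with urea alone were not analysed here, so the data give levels and their spread between replicates and no change caused by NBPT.

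The median intensity was 550 in each of the 3 arrays, and replicates correlated at 0.978 to 0.99 across transcripts, which are not independent replicates. Each array carries 1663 control probes of random sequence, whose median intensity was 73.3, 69.6 and 70.4 in replicates 1, 2 and 3. A transcript was called detected when its log2 level lay above the 95th percentile of these control probes in every array. This threshold was 8.24, 8.30 and 8.24 on the log2 scale, and 62.6% of all transcripts passed it. Of root markers, both measured genes (rtcs and rth3, which act in root initiation and root hair growth) were detected, with 4 of 4 transcripts. Of green leaf markers, 14 of 29 transcripts were detected, in 8 of 14 genes, among them pdk1 and lhcb3, whereas 0 of 4 transcripts of the small subunit of Rubisco (rbcS) were. These counts include 5 transcripts of genes named PDK1, 4 of them detected, which matched pdk1 only because letter case was ignored. In the same way 1 transcript of a gene named Pep1, not detected, was counted beside pep1. Whether the PDK1 and Pep1 genes are leaf markers was not tested, so the leaf marker counts may be too high and the detected share may be off. The part of leaf marker signal in the results was not tested.

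Transcripts of the nicotianamine and phytosiderophore genes were present in Urea+NBPT roots for 5 of the 6 genes on the array, against 67.9% of all genes. Of the 7 transcripts 6 were detected, namely those of nas2, GRMZM2G050108, GRMZM2G478568, DMAS1 (both transcripts) and ys1, against 62.6% of all transcripts. GRMZM2G439195 lay below the threshold in all 3 arrays. With the spread between replicates taken into account, 5 of the 7 lay above the threshold (limma, one-sided, Benjamini-Hochberg over all transcripts), where the same test called 61.3% of the array. The limma intervals and p-values given here use the summarised level of each array. They cover the spread between arrays and leave out the disagreement between probes of a transcript. At the stricter 99th percentile of the control probes 3 of the 7 were detected, nas2, DMAS1 GRMZM2G060952_T01 and ys1, against 47.4% of all transcripts. Probes differ in how strongly they bind, so levels are not set against each other between genes, and in pooled roots fewer expressing cells and less RNA per cell cannot be told apart. Probe sequences were not used here, so it was not tested whether a probe of one nicotianamine synthase also binds RNA of another.

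**Figure D1:**
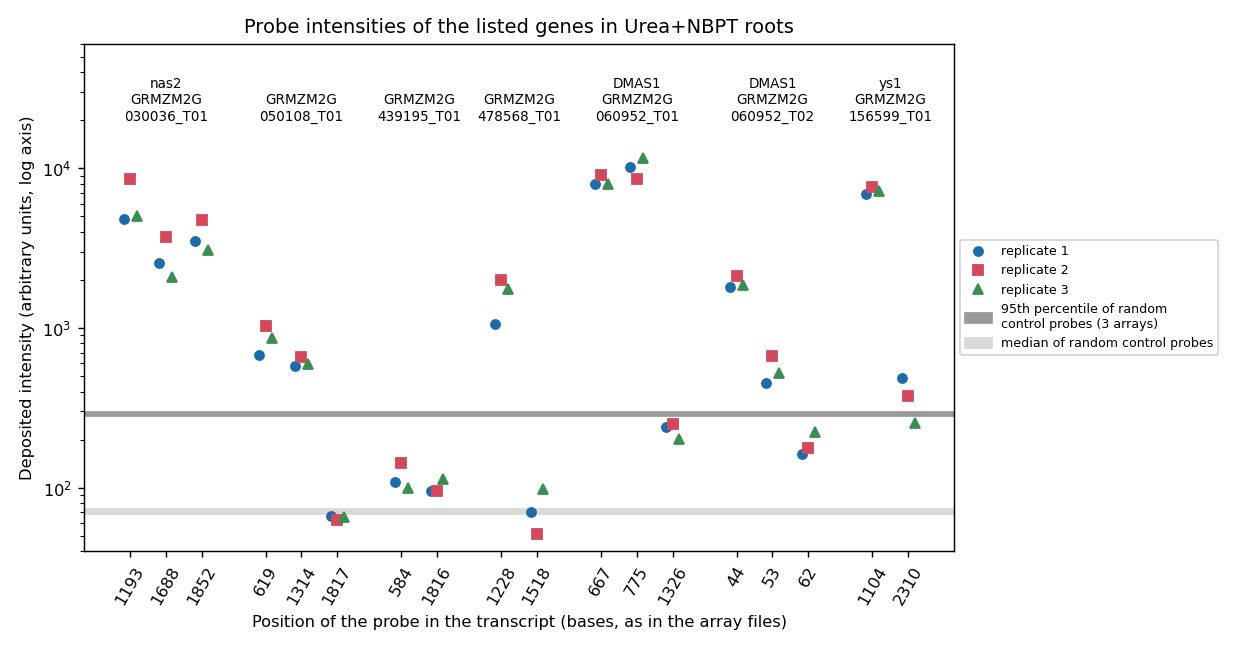
Deposited intensity (log axis) of each of the 18 probes, ordered within a transcript by position, in replicates 1, 2 and 3 of Urea+NBPT roots; grey bands give the median and the 95th percentile of the 1663 random controls. The 3 probes of nas2 sit far above both bands, those of GRMZM2G439195 lie between the bands in every replicate, and in 5 transcripts the probe with the highest position is the dim one.

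The nicotianamine synthase nas2 (GRMZM2G030036_T01) gave signal in all 3 of its probes. Its probe at position 1193 of the transcript read 4798, 8576 and 4996 in replicates 1, 2 and 3. The probe at position 1688 read 2565, 3724 and 2086, and that at position 1852 read 3511, 4755 and 3081. In each probe replicate 2 was the highest, at 1.75, 1.60 and 1.44 times the mean of the other replicates. Among all detected transcripts with 3 probes, replicate 2 was highest in every probe in 11.5%. The log2 level of nas2 was 11.78, 12.32 and 11.60, with a mean of 11.90 ± 0.37 (SD, n = 3). It lay 3.64 above the control threshold (95% interval 3.25 to 4.04, limma, adjusted p = 7.95e-06).

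The spread of nas2 was wider than that of most transcripts. Of all detected transcripts 88.6% had a smaller SD, and the median SD was 0.17. Replicate 2 of nas2 lay 0.63 above the mean of the others, and 4.50% of detected transcripts had a larger deviation of this kind. With replicate 2 left out, the level of nas2 was 11.69 and remained above the threshold (limma, adjusted p = 4.16e-07).

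GRMZM2G050108_T01 was detected through 2 of its 3 probes. The probe at position 619 read 678, 1027 and 863 in replicates 1, 2 and 3, and that at position 1314 read 577, 659 and 594. The probe at position 1817 read 66.5, 63.2 and 65.3, close to the median of the random control probes. The log2 level was 9.21, 9.40 and 9.26, with a mean of 9.29 ± 0.10 (SD, n = 3), which lay 1.03 above the threshold (95% interval 0.82 to 1.25, limma, adjusted p = 0.000102). The replicates lay within 0.19 of each other on the log2 scale. When the mean of the probes replaced the median polish, the level was 8.47 and the limma call was lost (adjusted p = 0.0716).

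The summarised level of GRMZM2G478568_T01 lay near the limit of detection, midway between 1 bright and 1 dim probe. Its probe at position 1228 read 1057, 2007 and 1751 in replicates 1, 2 and 3, higher than 99.7% to 99.9% of the random control probes of each array. Its other probe, at position 1518, read 70.0, 51.4 and 97.4, which is within the range of the control probes. Neither probe itself read near the threshold, so the level and the calls below rest on how the probes are combined. The log2 level was 8.26, 8.54 and 8.81, so that replicate 1 exceeded its threshold of 8.24 only narrowly. The mean of 8.54 ± 0.28 (SD, n = 3) lay 0.28 above the threshold, and the 95% interval of -0.07 to 0.62 included 0 (limma, adjusted p = 0.0755). Without replicate 1, 2 or 3 the adjusted p was 0.0456, 0.0898 and 0.353 (limma), so the limma call was made only when replicate 1 was left out.

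GRMZM2G439195_T01 was not detected. Its probe at position 584 read 108, 142 and 98.8 in replicates 1, 2 and 3, and its probe at position 1816 read 94.7, 96.0 and 113. The log2 level was 6.89, 7.07 and 6.94, with a mean of 6.96 ± 0.09 (SD, n = 3), at -1.30 relative to the threshold (95% interval -1.51 to -1.08). Its probes exceeded 67.5% to 84.2% of the random control probes. This gives an upper bound for the signal and does not show that the transcript was absent.

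**Figure D2:**
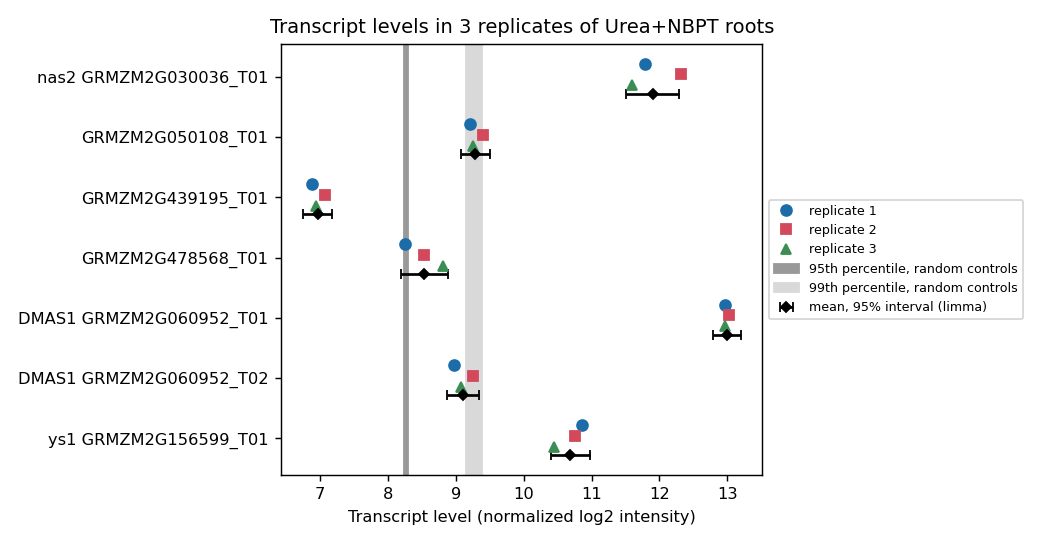
Normalized log2 level of the 7 transcripts in replicates 1, 2 and 3, with the mean and its 95% interval from limma; vertical bands mark the 95th and 99th percentiles of the random controls over the arrays. The levels of nas2, DMAS1 GRMZM2G060952_T01 and ys1 lie right of both bands, those of GRMZM2G050108 lie around the band of the 99th percentile, those of DMAS1 GRMZM2G060952_T02 lie mostly below it (1 of 3 arrays above), and GRMZM2G478568 lies at or just above the 95th.

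Deoxymugineic acid synthase, the last enzyme on the way to deoxymugineic acid, was represented by both transcripts of DMAS1. For GRMZM2G060952_T01, the probe at position 667 read 8023, 9117 and 8001 in replicates 1, 2 and 3, and that at position 775 read 10136, 8596 and 11534. All of these readings exceeded every random control probe of their array. The probe at position 1326 read 240, 250 and 200.4, below the 95th percentile of the control probes in each array. The log2 level was 12.97, 13.03 and 12.97, with a mean of 12.99 ± 0.03 (SD, n = 3), and it lay 4.73 above the threshold (95% interval 4.53 to 4.94, limma, adjusted p = 9.22e-07). This was the smallest SD among the detected transcripts of the list, and 5.18% of all detected transcripts had a smaller one.

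The small SD of GRMZM2G060952_T01 came with probes that deviated in opposite directions. Replicate 2 was 1.14 times the mean of the others in the probe at position 667 and 0.793 times in the probe at position 775. Median polish follows the middle probe when there are 3, and with the mean of the probes the level was 11.42 instead of 12.99, still above the threshold (limma, adjusted p = 2.52e-07).

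The transcript GRMZM2G060952_T02 of DMAS1 was measured by probes that start only 9 bases apart. At position 44 the intensity was 1803, 2102 and 1857 in replicates 1, 2 and 3. At position 53 it was 451, 672 and 525, and at position 62 it was 163, 177 and 224. The probes at positions 44 and 53 exceeded the control threshold in all 3 arrays, and the probe at position 62 did so in none. The log2 level was 8.98, 9.26 and 9.08, with a mean of 9.11 ± 0.14 (SD, n = 3), 0.85 above the threshold (95% interval 0.62 to 1.08, limma, adjusted p = 0.000316). It exceeded the 99th percentile of the control probes in 1 of 3 arrays.

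Yellow stripe 1, the transporter of iron-phytosiderophore complexes, was detected through 1 strong and 1 weak probe of GRMZM2G156599_T01. The probe at position 1104 read 6934, 7671 and 7186 in replicates 1, 2 and 3, above every random control probe of each array. Across replicates the highest of these readings was 1.11 times the lowest. The probe at position 2310 read 483, 373 and 253, of which the last was below the 95th percentile of the control probes, and its highest reading was 1.91 times its lowest. The log2 level of ys1 was 10.86, 10.76 and 10.45, with a mean of 10.69 ± 0.22 (SD, n = 3), and it lay 2.43 above the threshold (95% interval 2.14 to 2.72, limma, adjusted p = 1.18e-05). Replicate 3 lay at -0.36 relative to the mean of the others, a difference that came mostly from the weak probe. Of all detected transcripts 8.07% had a lower value of this kind.

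The position of the weak probes was not used to choose the genes. In 5 of the 7 transcripts, from 4 of the 6 genes, the probe with the lowest position was above the control threshold in all 3 arrays while the probe with the highest position was not, and the opposite occurred in 0. Across the array 17.1% of transcripts with more than 1 probe showed the first pattern and 12.2% the opposite. These transcripts are GRMZM2G050108_T01, GRMZM2G478568_T01, both of DMAS1 and that of ys1, and in GRMZM2G060952_T02 the outer probes lie only at positions 44 and 62. For nas2 both outer probes were above the threshold, and for GRMZM2G439195 neither was. Of the 18 probes 11 were above the threshold in all arrays, against 57.5% of all transcript probes. From which end of the transcript positions are counted was not stated in the labels or methods, and related genes are not independent of each other, so these counts are a description.

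The spread between replicates was set beside that of the whole array. In 0 of the 7 did the highest and lowest replicate differ by more than 1 on the log2 scale, where 5.02% of all transcripts did. The median SD of the 6 detected transcripts was 0.18, beside 0.17 for all detected transcripts, and 3 of the 6, nas2, GRMZM2G478568 and ys1, were above that value. After removal of a quadratic surface across each array, 5 of the 6 were detected, with a median SD of 0.108. The same 5 had a median of 0.142 without the removal, and all 6 had 0.15 with it. Of all detected transcripts 4.05% had a range above 1, and of these 6 it was 0. Replicate 2 was the highest in 4 of the 6, nas2, GRMZM2G050108 and both transcripts of DMAS1, against 31.7% of all detected transcripts. The transcripts of DMAS1 belong to 1 gene, and in GRMZM2G060952_T01 replicate 2 led only narrowly, at 13.03 against 12.97. In 0 of the 6 did replicate 2 exceed the mean of the others by more than 1, against 1.81% of detected transcripts. With so few members the counts of 0 are near the shares on the whole array, and all counts here, also that of replicate 2, are a description.

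**Figure D3:**
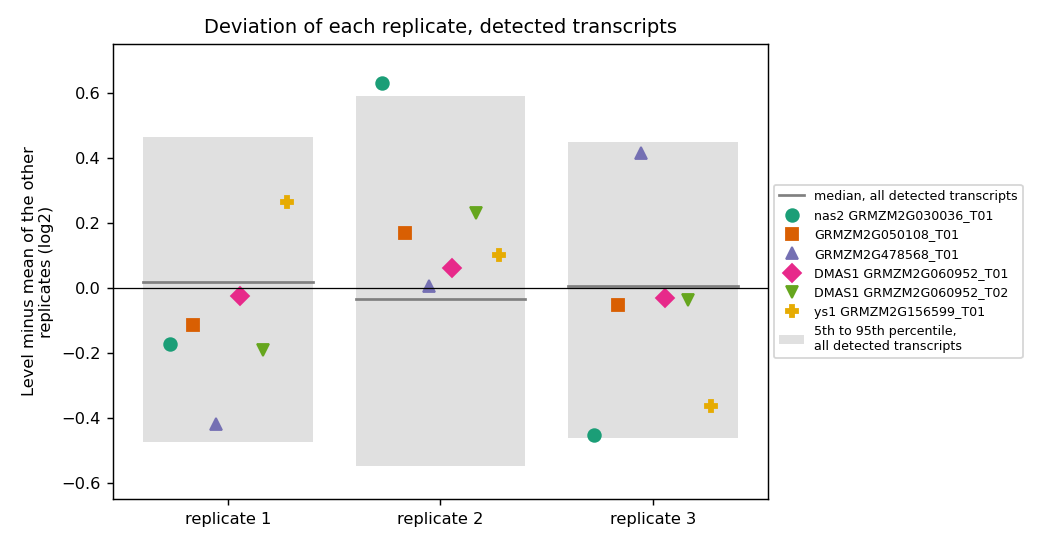
Difference between each replicate and the mean of the other replicates (log2) for the 6 detected transcripts; grey bars span the 5th to 95th percentile over all detected transcripts and the grey line is their median. The value of nas2 in replicate 2, 0.63, lies outside the bar, and GRMZM2G478568 and nas2 lie toward opposite edges in replicate 3, at 0.42 and -0.45.

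Other genes of the pathway were taken by name from the gene table, and 14 of their 19 transcripts were detected, or 73.7%, against 62.6% of the array. Nicotianamine aminotransferase naat1 (GRMZM2G096958_T01), which acts between nicotianamine synthase and DMAS1, had a log2 level of 12.42, 12.45 and 12.35 in replicates 1, 2 and 3. Its mean was 12.41 ± 0.05 (SD, n = 3). The genes nas2, DMAS1 and ys1 also had at least 1 detected transcript each. Across the array 67.9% of all genes had one, so this is a description.

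For the efflux and uptake of phytosiderophores 5 genes besides ys1 were named, and 5 of their 7 transcripts were detected, against 62.6% of all transcripts. With lists this small such counts are a description. YS3, also named ZmTOM1 after the rice transporter that releases deoxymugineic acid, had 8.99, 9.27 and 8.44 for GRMZM2G063306_T01 and 11.38, 11.31 and 10.93 for GRMZM2G063306_T02. In both transcripts replicate 3 was the lowest, as it was in ys1, nas2, GRMZM2G060952_T01 and naat1. In GRMZM2G060952_T01 replicates 1 and 3 were level at 12.97. In the other transcripts of the listed genes replicate 3 was not the lowest. Elsewhere in the pathway lists it was also lowest in both transcripts of IDI2, and it was highest in ysl14A and ysl12. The share of the array with replicate 3 lowest was not counted, and a shared pattern was not tested. Of the yellow stripe-like genes, relatives of ys1, ysl14A averaged 13.56 ± 0.16 (SD, n = 3) for GRMZM2G368398_T01 and ysl12 averaged 12.38 ± 0.28 (SD, n = 3) for GRMZM5G893444_T01. ysl17 (GRMZM2G049238_T01) at 7.20 ± 0.14 (SD, n = 3) and ysl11 (GRMZM5G812538_T01) at 7.31 ± 0.23 (SD, n = 3) were above the threshold in no array.

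The supply of S-adenosylmethionine, the substrate of nicotianamine synthase, was represented by sam2 and IDI2. Of their 6 transcripts 5 were detected, 4 of them of sam2, against 62.6% of all transcripts. The gene sam2, named for S-adenosylmethionine synthesis, averaged 15.22 ± 0.10 (SD, n = 3) for GRMZM2G154397_T01. Its transcript GRMZM2G154397_T03 had 10.62, 12.22 and 10.34 in replicates 1, 2 and 3. Replicate 2 of this transcript lay 1.74 above the mean of the others, and it was the 1 pathway transcript of 19 with a range above 1. IDI2, which in barley is induced by iron deficiency, averaged 12.65 ± 0.18 (SD, n = 3) for GRMZM2G139533_T02, while GRMZM2G139533_T01 exceeded the threshold in 2 of 3 arrays.

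Among genes of iron and zinc transport and storage 3 of 5 transcripts were detected, against 62.6% of all transcripts. At least 1 came from each of fer1, Nramp1 and ZIP4. Ferritin fer1, which stores iron in plastids, averaged 13.31 ± 0.19 (SD, n = 3) for GRMZM2G325575_T01, and GRMZM2G325575_T02 was above the threshold in no array. The metal transporter Nramp1 (GRMZM2G147560_T01) had 10.24, 10.77 and 10.97 in replicates 1, 2 and 3. Of the 10 transcripts that the study names for the acquisition of other nutrients, which it chose on these samples, 8 were detected, against 62.6% of all transcripts. At the 99th percentile of the control probes it was 5 of the 10, against 47.4%. Among the 8, VIT1 (GRMZM2G074672_T02) was not called by limma (adjusted p = 0.0664). ZIF1 (GRMZM2G161310_T02), described as a putative nicotianamine transporter, was not detected at 7.98 ± 0.07 (SD, n = 3). The YSL7 transcripts were, with 8.91 ± 0.27 (SD, n = 3) for GRMZM2G120922_T01 and 8.65 ± 0.21 (SD, n = 3) for GRMZM2G062844_T01.

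**Figure D4:**
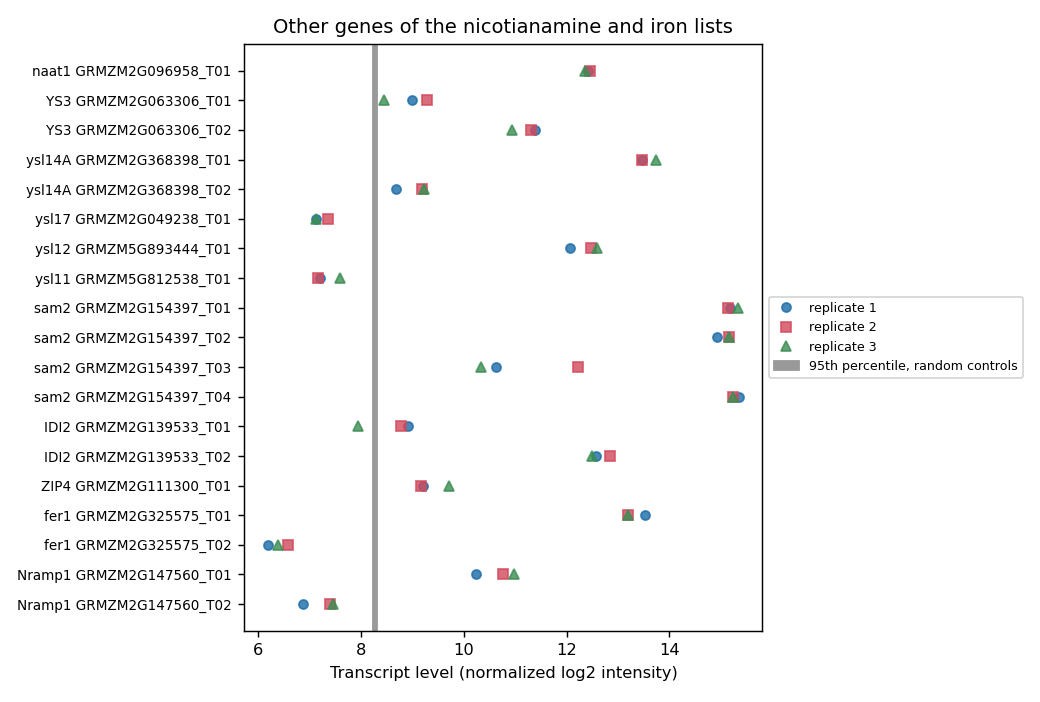
Normalized log2 level of the 19 other transcripts of the nicotianamine and iron lists in replicates 1, 2 and 3; the vertical band marks the 95th percentile of the random controls. Points of naat1 and of most sam2 transcripts lie close together, and replicate 2 of sam2 GRMZM2G154397_T03 stands apart at 12.22.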

How the data were processed

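Root RNA of 3 Urea+NBPT replicates was measured on NimbleGen maize arrays. NimbleScan gave the authors 1 Cy3 intensity for each probe, and RMA is named per the labels. The deposited intensity values appear quantile normalized already, since at equal rank no array exceeded another by more than 0.183%, and the value table equalled the array files (0 probes differed). From them, log2 values were computed with R 4.3.3 and limma 3.58.1, by normexp background correction (offset 50), quantile normalization and median polish per transcript. Levels minus the control threshold were fitted in limma over all transcripts, one-sided, with Benjamini-Hochberg adjustment. Only 1 condition was analysed here, so conditions were not compared. The number of arrays limits the precision.

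The members and lists were chosen with earlier results of these data known. Every transcript of the listed genes is reported. Pathway and marker genes were found by symbol in the gene table, ignoring letter case. Those named MTK, a prefix also used for tousled-like kinases, were left out, while PDK1 was kept beside pdk1 and Pep1 beside pep1. Patterns for gene descriptions were not used, as the table holds none. The steps were tested on simulated data. Alternatives were a stricter percentile, detection in at least 2 arrays, no background correction, an offset of 16, median scaling, probe means, the value table, removal of a surface across the array and leaving out each replicate. No sequences were printed.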

Additional observations from a re-analysis of the deposited data

How the results depend on the processing

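When a level had to exceed the 99th percentile of the random controls, the detected transcripts of the list numbered 3 instead of 6, the detected genes 3 instead of 5, and the transcripts called by limma 3 instead of 5. The transcripts lost were those of GRMZM2G050108, GRMZM2G478568 and GRMZM2G060952_T02. Removal of a quadratic surface across each array gave a median SD of 0.108 over the 5 transcripts then detected, against 0.18 over 6, against 0.142 for the same 5 without the removal, while all 6 had 0.15 with it. GRMZM2G478568_T01 was not detected without background correction, with an offset of 16 or after removal of the surface, where limma gave adjusted p-values of 0.193, 0.565 and 0.0538, and over all alternatives its adjusted p ran from 0.0456 to 1. The causes were not tested. The detection calls of nas2, GRMZM2G060952_T01 and ys1, and the lack of one for GRMZM2G439195, were the same under every alternative run. Some alternatives could hardly change a call. The value table equalled the array files, and median scaling acted on values that already appear quantile normalized. Detection in at least 2 arrays can only add calls. For ys1 and GRMZM2G439195, with 2 probes each, probe means gave the same levels as median polish (10.69 and 6.96). Leaving out each replicate gave 6 detected transcripts in each case, 5 to 6 called by limma, a median SD of 0.142 to 0.163, which is smaller over fewer arrays by construction, and 14 to 15 detected pathway transcripts. No paired analysis was possible because all arrays belong to 1 group. Signal over background limits the weak probes, which read close to the random control probes.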
